A study of Mus musculus with 7 samples.

Results

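In mouse gastrocnemius, 208 protein-coding genes had a ChIP-seq region of RNA polymerase II (RNAP2) in the flank beyond their annotated 3′ end. The regions were built from peaks that the authors called at a p cutoff of 0.05. ChIP-seq sequences the DNA that an antibody recovers together with a protein from fixed chromatin. Peaks of both RNAP2 lists that overlapped were merged, and the 10752 regions with a peak in each list were kept. A region was taken as lying past a gene end when its midpoint was 0 to 5 kb downstream of the 3′ end of a protein-coding gene, outside every protein-coding gene body and more than 2000 bp from every protein-coding transcription start site (TSS), in mm10 with GENCODE M21 genes. This rule kept 216 regions, 2.01% of all, and used position alone. Of the remaining regions, 6100 had their midpoint within 1000 bp of a protein-coding TSS, 2020 lay in gene bodies, 2341 were intergenic elsewhere and 75 were 1 to 2 kb from a TSS.

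The study mapped the clock activator BMAL1 and RNAP2 at Zeitgeber time (ZT) 4 and the clock repressor REV-ERBα at ZT8, counted in hours from lights on. The series holds 2 replicates of each and 1 input DNA sample, while the paper lists 2 input replicates. All 7 samples came from gastrocnemius of Wild Type male C57BL/6J mice of 5 months, on chow and a regular light and dark cycle. No second genotype and no agent is named. The titles of the ChIP samples read control, and the controls of the paper were Cre-negative littermates from a cross with a floxed *Bmal1* line. Whether the mice used here carried floxed alleles is not stated. Gastrocnemius is a mixed tissue in which muscle fibres lie among vessels, connective tissue, nerve and resident immune cells, and the nuclei of all of them entered the chromatin. RNAP2 was mapped in 1 condition, so there was no contrast to test, and differences between sets of regions are given as shares with 95% Wilson intervals, which cover counting error only. The depth behind a single peak is unknown, because the lists hold no read counts. The RNAP2 lists held 87870 and 168821 peaks with a median −log10 p of 3.21 and 1.99, so list 2 was longer and its peaks weaker. An RNAP2 region lay at the TSS of 10 of 10 skeletal muscle marker genes, of 0 of 8 liver genes and of 0 of 8 endothelial, 0 of 5 satellite cell, 0 of 6 adipocyte and 0 of 6 smooth muscle genes, against 3 of 8 for fibroblasts (*Col1a1*, *Col1a2* and *Dcn*) and 1 of 8 for macrophages (*Csf1r*). None of the genes on these lists of other cell types had a region past its 3′ end. Each of these lists had only 4 to 8 genes with at least 1000 bp of flank open to the search. Of all such genes 1.26% had a region, so the absence is not read as a difference between cell types.

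RNAP2 does not stop where the mature mRNA ends. The polymerase transcribes through the poly(A) signal, usually AATAAA or ATTAAA in the DNA, the nascent RNA is cleaved a short way downstream of that signal, and the polymerase continues into the flank until it is released, so highly transcribed genes are known to carry RNAP2 beyond their ends. The same flanks can also hold enhancers and the start sites of non-coding genes. Among these are genes for small nucleolar and spliceosomal RNAs, many of which have RNAP2 promoters of their own or lie in the introns of host genes.

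The 216 regions were of 3 kinds by the annotation, a division made after their values had been seen. In 26 of them (12%) the region spanned the gene end. The end lay inside a single peak of list 1 in 21 of the 26, of list 2 in 18 and of each list in 13, and in the others it lay within the region after the lists were merged. Coverage was not examined, so these regions do not show that RNAP2 was unbroken across the end. In 33 (15.3%) the region was detached from the gene and lay within 1000 bp of the TSS of a non-coding gene. The remaining 157 (72.7%) were separate, with neither property. The midpoint was a median of 236 bp past the gene end for regions that spanned it, 2191 bp for those at a non-coding TSS and 2209 bp for separate ones. Counting any kind, 38 regions (17.6%) had a non-coding TSS within 1000 bp, against 12.9% of all RNAP2 regions, 17.2% of those at a TSS and 18.7% of those 1 to 2 kb from one. A region past the end was found for 206 of the 16296 genes with at least 1000 bp of flank open to the search, a background of 1.26%.

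**Figure D1:**
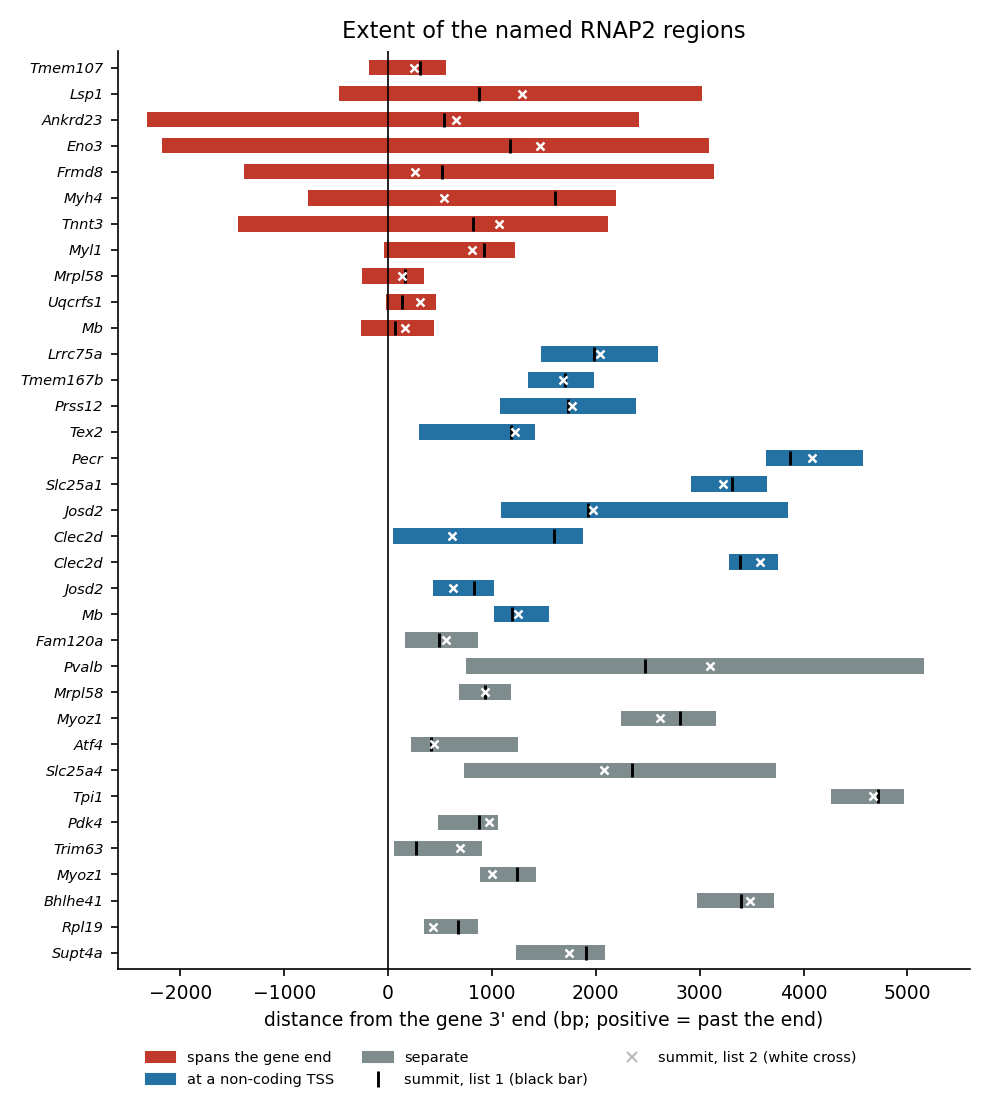
Extent of the regions named in the text, drawn to scale against the annotated 3′ end of their gene at 0 bp, with the summit of list 1 as a black bar and that of list 2 as a white cross. Regions in red start inside the gene and end up to 3141 bp past it (*Frmd8*), regions in blue lie at a non-coding TSS, and regions in grey are separate, the widest of them ending 5158 bp past *Pvalb*.

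The sequence at the gene ends and at the small-RNA genes shows both situations at base resolution. For muscle genes whose region spanned the end, the last 30 bases before the annotated 3′ end are printed 5′ to 3′ on the strand of the gene (GRCm38), with the poly(A) signal in capitals. A region is the union of peaks of both lists. A single peak covered the gene end in both lists at *Myh4*, *Mb* and *Ankrd23*, in list 1 at *Eno3* and *Tnnt3*, and in list 2 at *Myl1*.

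*Eno3*, chr11:70662484-70662513, plus strand: tctcccagaAATAAAcactgccaaaccaga
*Myh4*, chr11:67260417-67260446, plus strand: AATAAAttctgcagataattttgcaatcta
*Tnnt3*, chr7:142515980-142516009, plus strand: ctaggAATAAAgttatcagactcccctcta
*Myl1*, chr1:66924295-66924324, minus strand: AATAAActtggtcagtctggaatactcaaa
*Mb*, chr15:77015487-77015516, minus strand: gtctcAATAAAatatcctgcgagtcctcaa
*Ankrd23*, chr1:36530188-36530217, minus strand: tttctcATTAAActgactctattcacctca

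At 3 of the 5 strongest regions the 121 bases centred on the summit of list 1 held part of a small-RNA gene. They are shown with the bases of the annotated small RNA in capitals.

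Past *Tmem167b*, chr3:108554662-108554782, minus strand, *Scarna2* in capitals: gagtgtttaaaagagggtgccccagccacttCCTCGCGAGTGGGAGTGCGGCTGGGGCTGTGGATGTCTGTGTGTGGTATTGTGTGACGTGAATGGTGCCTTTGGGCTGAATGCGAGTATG
Past *Tmem107*, chr11:69073539-69073659, plus strand, *Snord118* in capitals: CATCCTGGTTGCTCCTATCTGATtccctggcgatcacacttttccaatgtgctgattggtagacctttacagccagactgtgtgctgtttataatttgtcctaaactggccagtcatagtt
Past *Tex2*, chr11:106500907-106501027, plus strand, *Snord104* in capitals: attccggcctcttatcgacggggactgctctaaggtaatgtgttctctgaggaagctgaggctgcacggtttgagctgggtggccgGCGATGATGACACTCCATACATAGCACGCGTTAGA

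The summit window of *Tmem167b* held the start of *Scarna2*, a guide RNA of Cajal bodies, that of *Tex2* the start of *Snord104*, and that of *Tmem107* the last bases of *Snord118*. *Scarna2* and *Snord118* lie on the strand of the gene before them, and *Snord104* on the opposite strand to *Tex2*.

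The strongest regions past gene ends lay at non-coding genes. Regions were ordered by the lower −log10 p of the 2 lists, and of the 12 strongest, 9 had a non-coding TSS within 1000 bp and 6 that of a small RNA. The first, 1470 to 2594 bp past the end of *Lrrc75a* (chr11:62602290-62603414), reached a −log10 p of 45.6 in list 1 and 34.5 in list 2, and covered the start of the non-coding gene *2410006H16Rik* and the snoRNA *Snord49b*, with *Snord49a* beginning 35 bp beyond it. *Lrrc75a* had no RNAP2 region at its own TSS. The region past *Tmem167b* followed with 50.5 and 25.8, and that past *Tmem107*, which began 183 bp before the gene end and stopped 555 bp past it, with 44.8 and 24.6. The region past *Prss12* covered the start of *Snhg8*, a host gene of snoRNAs, and of *Snora24*, and had a −log10 p of 48.8 and 24.2, again with no region at the *Prss12* TSS. The region past *Tex2* had 44.1 and 15.1. The region past *Pecr*, at the snRNA gene *Gm25939*, was the only one of the 12 that was stronger in list 2, with 13.6 in list 1 and 24.4 in list 2.

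Among the 12, *Slc25a1* (18.5 and 10) had the start of a transcript of unknown coding status, *AA914427*, inside its region. *Frmd8* (17.8 and 10.1) ended in a region of 4532 bp that held a TSS annotated for the antisense gene *Frmd8os*. *Ankrd23* (17.4 and 12), which encodes an ankyrin repeat protein bound to titin, had a region of 4737 bp across its end, with the start of the antisense gene *Gm38033* in it and the converging gene *Cnnm3* ending within 5 kb. The other 3 had no annotated non-coding start nearby. *Eno3* (35.5 and 12) encodes the muscle enolase of glycolysis and had the widest of the 216 regions past gene ends. It measured 5265 bp, from 2178 bp before the end to 3086 bp past it. The part inside the gene covered a TSS annotated near the end of *Eno3*, so transcripts that start there and those that arrive from the main promoter cannot be told apart. *Lsp1* (40 and 14.4), a gene named for its expression in leukocytes, was followed by a region of 3503 bp whose far edge was 943 bp from a TSS of the fast troponin T gene *Tnnt3*, so RNAP2 from the end of *Lsp1* and from upstream of *Tnnt3* cannot be told apart there. *Fam120a* (40.6 and 11.2) had a region of 701 bp starting 162 bp past its end, and was the strongest region with neither a non-coding TSS nor an overlap with its gene. Of all 216 regions, 3 had an edge within 1000 bp of a protein-coding TSS, those of *Lsp1*, *Eno3* and *Tnnt3*.

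**Figure D2:**
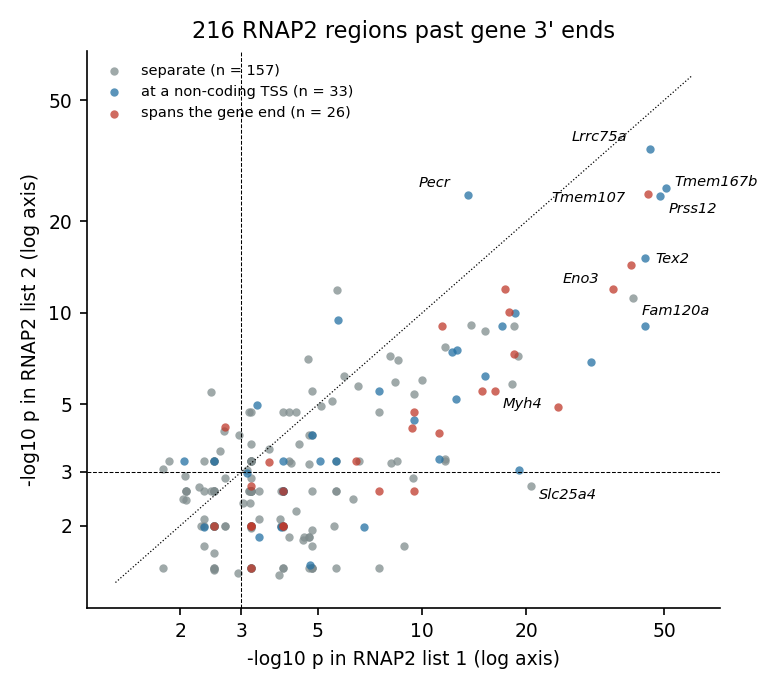
The −log10 p of each of the 216 regions in RNAP2 list 1 (x axis, log scale) against list 2 (y axis, log scale), coloured by kind, with dashed lines at 3 and a dotted line of equal values. Most points lie below the dotted line, 171 of 216 (79.2%) being higher in list 1, as were 80.1% of all RNAP2 regions. The labelled regions at small-RNA genes lie at the upper right.

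The regions past gene ends were weaker than those at TSSs and stronger than those in gene bodies and other intergenic sequence. The median −log10 p was 3.97 in list 1 and 2.6 in list 2, against 4.79 and 3.26 in the other 10536 regions and 3.21 and 1.99 in other intergenic regions. A −log10 p of at least 3 in both lists was reached by 83 of 216 regions (38.4%, interval 32.2 to 45.1), against 51% of all RNAP2 regions, 76.5% of those at a TSS, 34.7% (24.9 to 45.9) of those 1 to 2 kb from one, 17.2% of those in gene bodies and 15.6% of other intergenic ones. A −log10 q of at least 1.3 in both lists was reached by 44 (20.4%), against 29.3% of all. The kinds differed in strength. The share that reached 3 in both lists was 57.7% (38.9 to 74.5) of regions spanning an end, 69.7% (52.7 to 82.6) of those at a non-coding TSS and 28.7% (22.2 to 36.2) of separate ones, so the interval of the separate regions overlapped neither of the others. Across regions, Spearman's rank correlation of the −log10 p between the lists was 0.852 for the 26 that spanned an end, 0.759 for the 33 at a non-coding TSS and 0.312 for the 157 separate ones, values that describe regions of the same 2 libraries, called against input.

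RNAP2 regions were denser close to gene ends than farther away. Per Mb of sequence open to the search, 4.19 regions lay in the first 1000 bp past an end, 3.42 between 1000 and 2000 bp, 3.42 between 2000 and 3000 bp, 2.4 between 3000 and 4000 bp and 2.14 between 4000 and 5000 bp. Beyond that the density was 2.04 at 5 to 10 kb, 2.02 at 10 to 20 kb and 1.99 at 20 to 50 kb. Over the first 5 kb it was 3.17, or 1.55 times that at 5 to 10 kb. The 2.04 found farther away makes up the larger part of 3.17, so most of the 216 regions are not in excess of that density. No single region can be assigned to the excess. Within 5 kb before gene 5′ ends, outside the 2000 bp left out around each TSS, the density was 2.04. At 5 to 10 kb before 5′ ends it was 2.25. Both values leave out sequence within 10 kb past a 3′ end.

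The fall with distance was also present among the stronger regions. Those that reached a −log10 p of 3 in both lists numbered 1.55 per Mb in the first 1000 bp, 0.905 at 4000 to 5000 bp and 0.656 at 5 to 10 kb. With regions within 1000 bp of a non-coding TSS left out, a choice made after the values were seen, the density was 3.58 per Mb in the first 1000 bp, 1.89 at 4000 to 5000 bp and 1.61 at 5 to 10 kb. When bodies and TSSs of all annotated genes were left out of both regions and searched sequence, the ratio of the first 5 kb to 5 to 10 kb was 1.64. In single lists the contrast was smaller. List 1 alone had 38.7 peaks per Mb in the first 1000 bp and 27.4 at 5 to 10 kb, and list 2 alone 65.9 and 59.4. The ratio over the first 5 kb was 1.22 in list 1 and 1.07 in list 2.

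**Figure D3:**
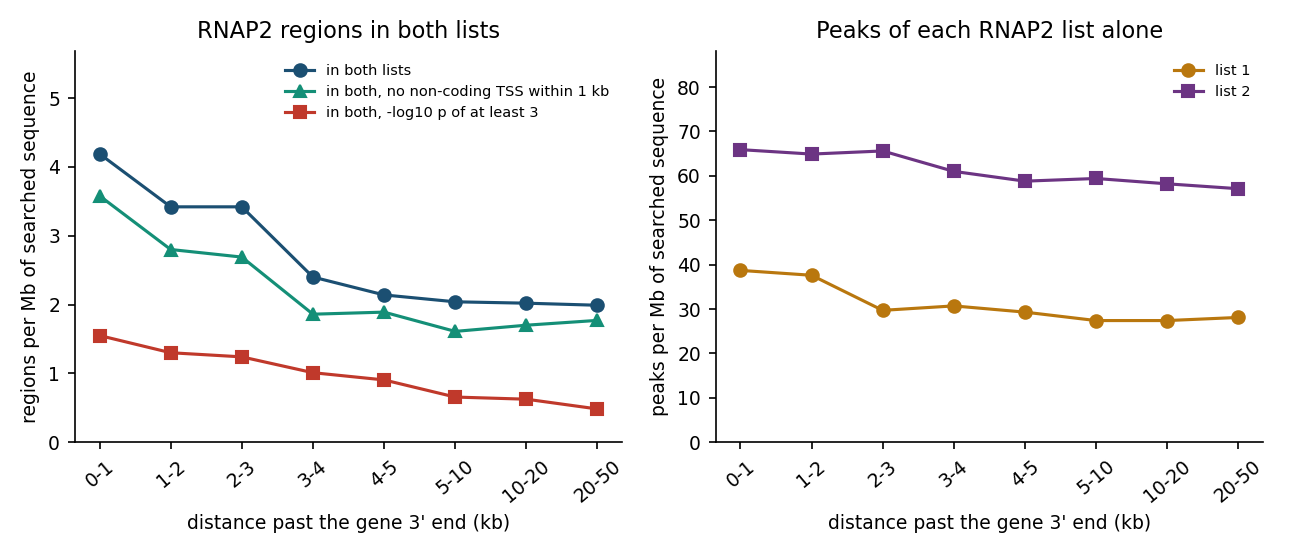
Density of RNAP2 regions present in both lists (left) and of peaks of each list alone (right), per Mb of searched sequence, by distance of the midpoint past the gene 3′ end in kb. Regions in both lists fall from 4.19 to 2.14 per Mb over the first 5 kb and stay near 2 per Mb out to 50 kb, while list 2 alone changes from 65.9 to 57.1.

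Genes with RNAP2 past the end more often had RNAP2 at their TSS. Of the 208 genes, 101 (48.6%, interval 41.9 to 55.3) had an RNAP2 region within 1000 bp of an own TSS, against a background of 27.2% of genes with open flank. Counted per region, the share was 76.9% (57.9 to 89) for regions spanning the end, 48.5% (32.5 to 64.8) for those at a non-coding TSS and 45.9% (38.3 to 53.7) for separate ones. Read from the TSS, 0.902% (0.747 to 1.09) of the 11861 genes with no TSS region had a region past the end. The share was 1.66% (1.02 to 2.68) of 965 genes whose TSS region had a lower −log10 p under 3, 1.62% (1.21 to 2.16) of 2781 genes between 3 and 10, and 5.52% (4.04 to 7.48) of 689 genes at 10 or more. Over all 4435 genes with a TSS region it was 2.23%.

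The share of genes with a region spanning the end was 0.0506% (0.0232 to 0.11) with no TSS region and 1.45% (0.79 to 2.65) with a TSS region of 10 or more. For separate regions it was 0.717% (0.58 to 0.885) and 3.63% (2.47 to 5.3). For regions at a non-coding TSS it was 0.135% (0.0831 to 0.219) and 0.435% (0.148 to 1.27), and these intervals overlapped. In the classes between, the share of this kind was 0.518% (0.222 to 1.21) under 3 and 0.252% (0.122 to 0.519) from 3 to 10. The first of these intervals lay apart from that with no TSS region and the second overlapped it, on 5 and 7 genes. The mean length of open flank was 4466 bp in genes with no TSS region and 4310 bp in the class with the strongest TSS. RNAP2 in the last 1000 bp of the gene itself preceded 5 of the 33 regions at a non-coding TSS and 7 of the 157 separate ones, and was present in 0.939% of genes with open flank.

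**Figure D4:**
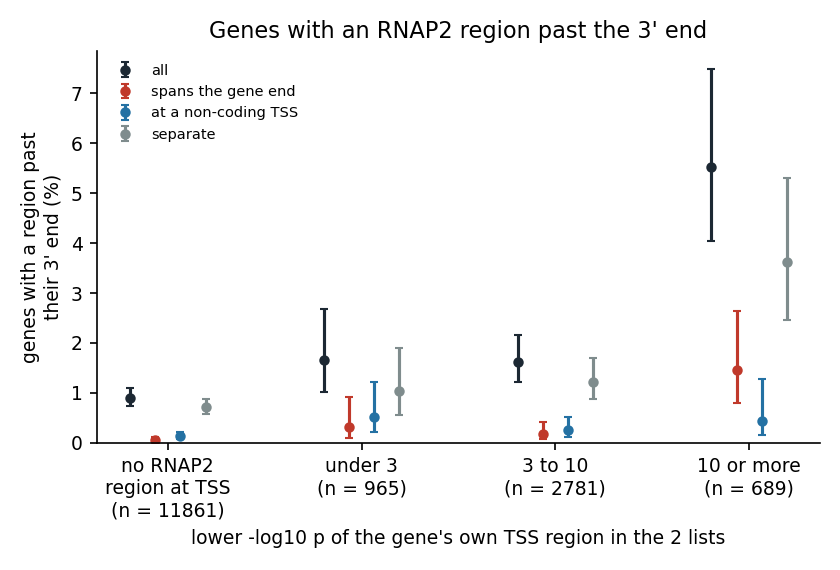
Percent of genes with open flank that had an RNAP2 region past their 3′ end, by the lower −log10 p of the region at their own TSS, for all regions and for each kind, with 95% Wilson intervals. The share for all regions is 0.902% with no TSS region and 5.52% at 10 or more.

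Genes of the contractile apparatus were among those with a region past their end. Of 32 sarcomere genes with open flank, 6 (18.8%) had a region, against the background of 1.26% and of 5.52% among genes with the strongest TSS regions. The lists were drawn up with results of these data known and no test was made of them. *Myh4*, the myosin heavy chain of the fastest fibres, had a −log10 p of 71.3 and 31.9 at its TSS and a region of 2969 bp across its end, with 16.2 in list 1 and 5.52 in list 2, reaching 2196 bp past it. *Tnnt3*, fast troponin T, had 60.9 and 32.9 at its TSS and 24.7 and 4.91 in a region of 3560 bp that reached 2115 bp past its end. The edge of this region lay 435 bp from a TSS annotated within *Tnnt3*. *Myl1*, a light chain of fast myosin, had 25.6 and 12.6 at its TSS and 9.37 and 4.2 in a region that began 35 bp before the end and stopped 1226 bp past it.

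*Myoz1*, a Z-disc protein that binds calcineurin, had 2 detached regions, with midpoints 1156 and 2702 bp past its end. The farther one was the stronger, with 7.49 and 4.71 against 4.71 and 1.84. The other 2 sarcomere genes fall outside the rule for named genes. *Mylk2*, the kinase of skeletal myosin light chains, had a region from 17 to 2273 bp past its end with 11.6 and 3.26, and *Des*, the muscle intermediate filament, had one 2454 to 3902 bp past its end with 5.65 and 3.25, and a TSS annotated for the antisense gene *Gm15179* lay 582 bp from it. Regions also spanned the ends of *Acta1*, *Tnnc2* and, beside the one above, *Des*, but with the midpoint inside the gene, which the rule does not count. In all, 153 RNAP2 regions (1.42%) spanned a protein-coding 3′ end, of which 26 lay past it by their midpoint, 92 had it within 1000 bp of a TSS and 27 in a gene body.

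Of 20 genes for calcium handling and excitation, 1 (5%) had a region. *Pvalb*, the calcium buffer of fast fibres, had the widest of the separate regions, 4405 bp from 754 to 5158 bp past its end, with 18.9 in list 1 and 7.22 in list 2. Its TSS had 74.8 and 46.8. This region did not touch the gene, and no annotated start of a non-coding gene was within 1000 bp of it.

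Of 31 genes for glycolysis, glycogen and phosphagen metabolism, 3 had a region, and of the 18 with open flank 2 (11.1%) had it, as *Eno3* had 997 bp of open flank. *Eno3* was the strongest, and *Tpi1*, the triosephosphate isomerase, had a weak region 4268 to 4970 bp past its end with 4.32 and 2.24. *Pdk4*, the kinase that turns off pyruvate dehydrogenase, had one 484 to 1055 bp past its end with 2.06 and 2.91. The creatine kinase gene *Ckm* had a region across its end with the midpoint in the gene.

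Of 22 genes for oxidative phosphorylation and oxygen supply, 3 (13.6%) had a region. *Slc25a4*, the muscle ADP/ATP carrier, had a region from 733 to 3738 bp past its end with 20.6 in list 1 and 2.69 in list 2, a wide difference between the lists, although its TSS reached 70.1 and 47.6. *Mb*, myoglobin, had 1 region across its end with 3.97 and 1.99 and a second one, 1021 to 1548 bp past it, with 3.38 and 1.84. *Uqcrfs1*, the iron-sulfur protein of complex III, had 3.97 and 1.99 in a region across its end. The values of *Mb* and *Uqcrfs1* were at or below the medians of all regions past gene ends in both lists.

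The 35 immediate early and stress genes included 3 with a region (8.57%), of which 2 are described. *Atf4*, a transcription factor of the stress response, had 4.11 and 4.74 in a region beginning 223 bp past its end. *Trim63*, the muscle ubiquitin ligase MuRF1, had 3.21 and 1.97 in one beginning 60 bp past its end. The other lists had 1 or 2 genes each. *Rpl19* of the large ribosomal subunit, 1 of 25 translation genes (4%), had 4.79 and 1.71. *Bhlhe41*, a clock repressor and 1 of 13 clock genes (7.69%), had 4.52 and 1.79 in a region 2974 to 3720 bp past its end, and the clock output gene *Dbp* had a region across its end with the midpoint in the gene. Among 19 genes for 3′ processing and termination, 2 (10.5%) had a region, among them the elongation factor gene *Supt4a* with 4.79 and 1.45. Of the genes named here from the lists, *Myh4*, *Tnnt3*, *Pvalb* and *Eno3* reached a −log10 q of 1.3 in both RNAP2 lists, and the others did not. With counts of 1 to 6 genes, no comparison between the lists was made.

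Most genes had a single region past their end. Of the 208, 8 had 2, among them *Josd2*, *Clec2d*, *Mrpl58* and *Myoz1*. The 2 regions past *Josd2* both lay within 1000 bp of a TSS of the lincRNA gene *5430431A17Rik* and differed widely, with 44.1 and 9.04 in the one 1089 to 3847 bp past the end and 2.05 and 3.26 in the one before it. Those past *Clec2d* had 12.6 and 7.54 nearer the gene and 3.12 and 2.97 farther away. *Mrpl58*, a mitochondrial ribosomal protein gene whose neighbour *Atp5h* ends toward it, had 3.62 and 3.23 across its end and 5.1 and 4.94 in a separate region 687 to 1187 bp past it. A converging protein-coding gene ended within 5 kb of 18 of the 216 regions (8.33%), so RNAP2 there can belong to either gene. At the limit of the rule, the farthest regions inside it were those of *Ubox5* at 4987 bp, *Edn1* at 4923 bp and *Dyrk3* at 4830 bp, with 2.08, 2.5 and 3.21 in list 1, and the nearest outside were those of *Sult4a1* at 5047 bp, *Ercc6* at 5052 bp and *Slc45a3* at 5054 bp, with 3.97, 4.79 and 3.21.

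Regions past gene ends were overlapped by REV-ERBα regions, present in both REV-ERBα lists, in 28 of 216 cases (13%, interval 9.12 to 18.1), against 3.97% of all RNAP2 regions. BMAL1 regions overlapped 11 (5.09%, 2.87 to 8.89), against 0.986%. The 75 RNAP2 regions outside gene bodies and 1 to 2 kb from a TSS had similar shares, 12% (6.44 to 21.3) for REV-ERBα and 5.33% (2.09 to 12.9) for BMAL1, and these intervals overlapped those past gene ends. Of the 11 regions with BMAL1 past gene ends, 10 were also overlapped by REV-ERBα. The matching share among the 106 RNAP2 regions overlapped by BMAL1 is not given here, so this count is not read as a trait of gene ends. The share overlapped by REV-ERBα was 38.5% (22.4 to 57.5) of regions spanning an end, 15.2% (6.65 to 30.9) of those at a non-coding TSS and 8.28% (4.9 to 13.7) of separate ones. At *Eno3* the −log10 p was 7.99 and 12.6 for REV-ERBα and 4.74 and 9.61 for BMAL1. At *Pvalb* it was 21.5 and 15.4 for REV-ERBα and 8.19 and 7.22 for BMAL1, and at *Myh4* 13.7 and 14.9 for REV-ERBα and 8.09 and 7.22 for BMAL1. *Lrrc75a*, with 14.9 and 24.2, and *Frmd8*, with 11.4 and 13.3, were overlapped by REV-ERBα alone, while *Lsp1* (7.69 and 2.54), *Ankrd23* (8.03 and 4.91) and *Josd2* (6.95 and 7.79) were overlapped by both, with lower BMAL1 values of 1.66, 2.75 and 2.15.

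The overlap moved with the width of the RNAP2 region. REV-ERBα overlapped 2.9% (0.799 to 9.97) of the 69 regions up to 500 bp, 4.63% (1.99 to 10.4) of the 108 over 500 and up to 1000 bp, 41.7% (24.5 to 61.2) of the 24 over 1000 and up to 2000 bp and 73.3% (48 to 89.1) of the 15 that were wider. Among all other RNAP2 regions of these widths the shares were 1.07%, 2.23%, 12.1% and 59.1%. For REV-ERBα the intervals of the 2 sets were apart in the class over 1000 and up to 2000 bp and overlapped in the other 3. For BMAL1 the widest regions had a share of 53.3% (30.1 to 75.2) past gene ends and 23.4% (17.4 to 30.7) elsewhere, and these intervals overlapped slightly. The 15 widest regions past gene ends included those of *Eno3*, *Myh4*, *Tnnt3*, *Pvalb*, *Mylk2* and *Slc25a4*, 9 of the 15 spanned the gene end, and 11 belonged to genes with RNAP2 at their TSS. The part of region width in the overlap with both factors was not tested. Of the overlaps, 19 of 28 for REV-ERBα and 4 of 11 for BMAL1 reached a −log10 p of 3 in both lists of that factor.

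**Figure D5:**
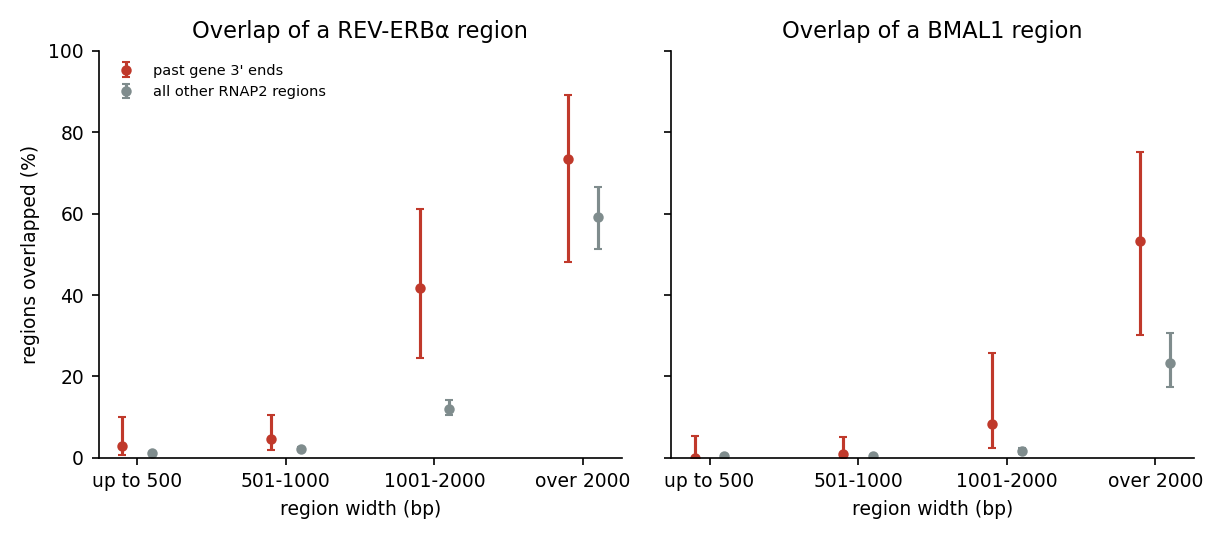
Percent of RNAP2 regions overlapped by a REV-ERBα region (left) or a BMAL1 region (right), by width of the RNAP2 region in bp, for regions past gene 3′ ends (red) and all other RNAP2 regions (grey), with 95% Wilson intervals. REV-ERBα overlap past gene ends goes from 2.9% in the narrowest to 73.3% in the widest class.

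The DNA under the regions differed in composition from promoter-rich RNAP2 regions. In windows of 100 bp to each side of the list 1 summit, the median GC content was 49.8% past gene ends, 58.7% over all RNAP2 regions and 45.3% in flank windows, taken past the ends of genes with a TSS region and no region in both lists past the end. Regions at a non-coding TSS had 58.7% and a ratio of observed to expected CpG of 0.715, against 0.239 over all regions past gene ends. Repeat-masked sequence made up 15.5% of the windows past gene ends, against 29.5% of the flank windows. Searched on the strand of the gene, the poly(A) signal AATAAA was in 8.33% of the windows past gene ends, 5.52% of all RNAP2 windows and 12.3% of the flank windows. ATTAAA was in 4.17%, 3.92% and 10.1%. Around the summit of list 2 the share past gene ends was 8.33% for ATTAAA and 10.2% for AATAAA, so the position of ATTAAA relative to the flank windows depended on the list. The other motifs were searched on both strands. GGGGG was in 30.6%, 38.9% and 22.9%, and CCAAT in 29.2%, 23.2% and 24.9%. Around the list 2 summit CCAAT was in 25.5% past gene ends. Other intergenic RNAP2 windows had CCAAT in 29% around the list 1 summit. The E-box CACGTG, the site of BMAL1 with CLOCK, was in 4.17%, 4.69% and 3.1%, with 2.78% past gene ends around the list 2 summit, and the E-box CAGCTG, which myogenic factors bind, in 11.1%, 11.3% and 9.35%. No motif of the set contains another, and a match in a window of this size is a description of its letters. At the annotated gene ends, 161 of the 208 genes (77.4%) had AATAAA or ATTAAA in the last 40 bases, against 69.9% of genes with open flank.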

How the data were processed

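Peaks came from 6 ChIP-seq lists, 2 each for RNAP2 and BMAL1 at ZT4 and REV-ERBα at ZT8. The authors aligned reads to mm10 with BWA 7.12, discarded duplicates and reads with several alignments, brought replicates of a factor to similar depth by down-sampling, and ran MACS2 2.1.1 per sample against input with a p cutoff of 0.05. The deposited −log10 p-value and −log10 q-value are those at the peak summit, and the deposited fold enrichment is a ratio over input. The deposited score was not used. Reads and coverage were not used, so depth per peak is unknown.

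Peaks sharing 1 bp or more were merged, and a region needed a peak in both lists. Where a region held several peaks of a list, the highest −log10 p was taken. Genes were those of GENCODE M21 and sequence that of GRCm38.p6, whose chromosome lengths held every peak of the 21 chromosomes used. Density was the number of region midpoints per Mb of sequence outside protein-coding bodies and more than 2000 bp from protein-coding TSSs, each base counted for its nearest gene end. Genes with at least 1000 such bases within 5 kb had open flank. The TSS window was 1000 bp to each side. No contrast between conditions exists, and no test was made.

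Genes named in the text are those of the 12 strongest regions by lower −log10 p, up to 4 per gene list, up to 5 each overlapped by REV-ERBα and BMAL1, the 4 genes with most regions, and the 3 regions on each side of the distance limit. Some genes that meet this rule are not reported here. Regions, lists and comparisons were chosen with earlier results of these data known. The rule was tested on simulated peaks. Alternatives were stricter thresholds, overlap rules, list lengths, distances, annotations and single lists. Python 3.11.15, numpy 2.4.6, scipy 1.17.1, pysam 0.24.0 and matplotlib 3.10.9 were used.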

Additional observations from a re-analysis of the deposited data

Results flagged for a closer look

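Outside the chromosomes that were searched, RNAP2 list 1 held 9 peaks on unplaced contigs and list 2 held 0. These peaks entered no comparison, and they were listed because they are a signal in data that the comparisons leave out.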

How the results depend on the processing

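The number of regions past gene ends moved from 216 to 83 with a −log10 p of 3 or more required of each peak, 44 at a −log10 q of at least 1.3, 112 within 2000 bp of the end and 325 within 10000 bp. It was 159 with lists of equal length. Single RNAP2 lists gave 2284 to 4329. The density ratio of 1.55 became 1.86 at −log10 p of at least 3, 1.91 at −log10 q of at least 1.3, 1.8 with an overlap of 50% of the shorter peak, 1.66 by summit and 1.86 within 2000 bp, and 1.07 to 1.22 in single lists, so it stayed above 1 under each alternative that was run. The share of genes with a TSS region was 36.4% at −log10 q of at least 1.3, against 13.4% of genes with open flank, 58.3% against 27.9% within 2000 bp, and 49.9% to 54.3% against 45.3% and 45% in single lists. REV-ERBα overlap was 20.5% at −log10 p of at least 3, 18.2% at −log10 q of at least 1.3 and 19.6% within 2000 bp, against 4.81%, 3.2% and 3.97% of all RNAP2 regions. It ranged from 0.832% to 21.8% when an RNAP2 or REV-ERBα list was left out, against 0.352% and 8.39% of all RNAP2 regions, and BMAL1 overlap ranged from 0.439% to 16.2%, against 0.248% and 6.72%. Motif shares within 50 bp of the summit were lower for each of the 6 motifs, in a window that is shorter by construction, and ATTAAA was in 8.33% around the list 2 summit. No paired analysis was possible because every result is a count or share over lists and comes from no test. Depth per peak is unknown, and with 1 condition and 2 lists no error between animals could be given.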
